A study of Homo sapiens with 6 samples.

Results

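A group of 10 genes of the insulin-like growth factor (IGF) pathway was examined: the binding proteins IGFBP1 to IGFBP7, the clearance receptor IGF2R, and the docking proteins IRS1 and IRS2. They were taken by gene symbol, from a list drawn up with earlier results of these data known. Of these 10 listed symbols, 9 had a transcript cluster of their own, out of 18418 symbols that did. A transcript cluster is the array's unit for a gene, and its value summarises the probes placed along the gene's transcripts. None of the 9 had a second cluster to choose from. IGFBP6 sat only on a cluster that the platform annotation gives to both IGFBP6 and C12orf57, so it was left out of the member counts and is described separately.

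MDA-MB-231 is a human breast cancer line without hormone receptors, from which 231BoM-1833 was derived by selection in mice for bone metastasis and 231BrM-2a for brain metastasis. From each of the 3 lines, cells lacking CD24 and carrying CD44 and ESA, the product of EPCAM, were taken by magnetic sorting as a population enriched for cancer stem cells, and their total RNA was put on Affymetrix Human Gene 1.0 ST arrays. The 3 lines were grown in the same serum-containing medium, with no drug, knockdown or transgene named in the labels. There were 2 arrays per line, called biological replicates, but separate cultures or sorts are not described, so the p-values cover only the spread among these arrays, and part of it may be technical. Each derivative stands for 1 selected line, and the sorted cells were neither compared with unsorted ones nor given a purity.

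IGF1 and IGF2 are secreted ligands that act through IGF1R, a receptor tyrosine kinase related to the insulin receptor INSR. The binding proteins hold the ligands outside the cell, lengthen their life and limit their access to the receptor, until proteases cleave them. IGFBP7 binds IGFs weakly and is known mainly as a secreted protein of vessels and matrix. IGF2R has no kinase and carries IGF2 to lysosomes. IRS1 and IRS2 are phosphorylated by the activated receptors and recruit phosphoinositide 3-kinase (PI3K), which signals through AKT. In breast cancer cells the pathway is known for growth and survival signalling.

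Array medians lay between 6.58 and 6.64 on the log2 scale. Replicate arrays correlated at r = 0.9935 to 0.9959 across clusters (3 pairs) and arrays of different lines at 0.9666 to 0.9832 (12 pairs), where clusters are not independent replicates. As a check of the label, the mesenchymal gene VIM had line means of 12.32 to 12.91. AXL and MSN, listed with it, stood at 11.67 to 11.86 and 12.59 to 13.08. Of the genes listed as low, the hormone receptor genes ESR1 and PGR stood at 5.01 to 5.19 and 4.56 to 4.76. ERBB2, also listed as low, stood at 8.38 to 9.18, above the array medians. No detection call was used, so the value at which a gene counts as silent is unknown. Precision is limited by the number of arrays. In what follows, levels are log2 values normalised by robust multi-array averaging (RMA), and a mean is given with its SD (n = 2). Differences are log2 changes with the standard error from limma, and a gene is called where its p, adjusted by the Benjamini-Hochberg method over all 21214 clusters with a symbol, is under 0.05. The 3 comparisons share arrays, so they are not independent of one another. By this rule VIM was lower (-0.37, adjusted p = 0.0294) and ERBB2 higher (0.45, adjusted p = 0.0235) in 231BrM-2a than in MDA-MB-231. MSN was higher in 231BoM-1833 than in MDA-MB-231 (0.48, adjusted p = 0.0137). Each of these calls was lost when some single arrays were left out.

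IRS2 and IGFBP4 fell in sorted 231BoM-1833 cells, the bone-selected line, and IGFBP7 and IRS1 rose in sorted 231BrM-2a cells, the brain-selected line. In 231BoM-1833 against MDA-MB-231, 0 of the 9 members rose and 2 fell, beside 15.8% of all clusters called, 8.43% higher and 7.38% lower. In 231BrM-2a against MDA-MB-231, 2 rose and 0 fell, beside 19.0% called, 10.5% higher and 8.59% lower. Between the derivatives the same 4 genes were all higher in 231BrM-2a and 0 members were lower, where 23.5% of clusters were called, 12.5% higher and 11.0% lower. At an unadjusted limma p under 0.05, 4 members were lower and 0 higher in the bone line, 2 higher and 1 lower in the brain line, and 4 higher and 0 lower in the brain line than in the bone line. These shares of 9 genes are small counts, and in the comparisons with MDA-MB-231 they lie near the background. The median change of the members was -0.26, -0.02 and 0.28 in the 3 comparisons, beside -0.05, -0.05 and 0.01 over all clusters.

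The line means of 5 members were lowest in 231BoM-1833, and those of 4 members were highest in 231BrM-2a. IGFBP4, IGFBP7, IRS1 and IRS2 were both, with MDA-MB-231 between the derivatives. Another 4 members, IGFBP1, IGFBP2, IGFBP3 and IGF2R, had their highest mean in MDA-MB-231, and 5 members were called in no comparison. The arrays of the compared lines did not overlap for 6, 5 and 6 of the 9 members in the bone, brain and between-derivative comparisons, beside 59.8%, 63.8% and 60.1% of all clusters, so these counts lie near the background. In these bulk samples, fewer cells that express a gene and less RNA per cell cannot be told apart.

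**Figure D1:**
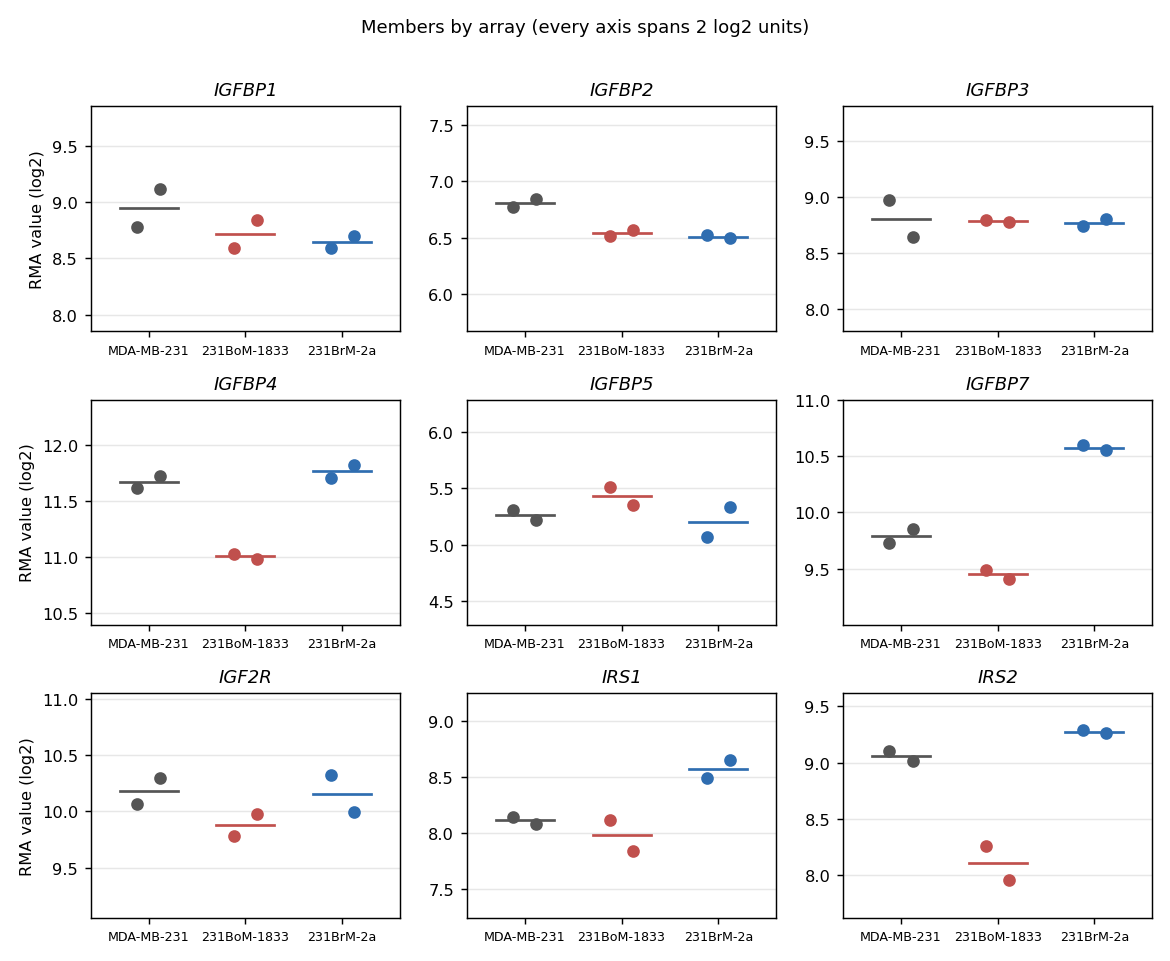
RMA values (log2, vertical axis, every panel spanning the same range) of the 9 members on each array, with points for arrays and lines for the mean of 2 arrays. IRS2 and IGFBP4 are low on both 231BoM-1833 arrays, IGFBP7 and IRS1 are high on both 231BrM-2a arrays, and IGFBP3 lies between 8.64 and 8.97 on all 6.

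Promoter sequences are shown for the 3 called members that had an entry in the RefSeq promoter table, since they share an order across the lines. Of the 10 listed symbols, 8 matched an entry by symbol, all but IGFBP1 and IGFBP7. Each sequence is the 250 bases before an annotated transcription start in GRCh38.p14, read 5′ to 3′ on the gene's strand. Capitals mark 3 motifs, searched on both strands with overlapping matches counted: the TATA box (TATAAA), the GC box (GGGCGG or its complement) and the core of insulin response elements (TTGTTTTG).
IRS2, chr13:109786584-109786833, minus strand: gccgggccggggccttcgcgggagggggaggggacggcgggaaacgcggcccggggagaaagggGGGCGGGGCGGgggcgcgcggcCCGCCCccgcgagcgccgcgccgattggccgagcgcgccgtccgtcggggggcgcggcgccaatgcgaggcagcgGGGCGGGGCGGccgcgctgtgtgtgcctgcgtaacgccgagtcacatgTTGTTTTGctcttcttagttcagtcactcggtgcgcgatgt
IRS1, chr2:226799821-226800070, minus strand: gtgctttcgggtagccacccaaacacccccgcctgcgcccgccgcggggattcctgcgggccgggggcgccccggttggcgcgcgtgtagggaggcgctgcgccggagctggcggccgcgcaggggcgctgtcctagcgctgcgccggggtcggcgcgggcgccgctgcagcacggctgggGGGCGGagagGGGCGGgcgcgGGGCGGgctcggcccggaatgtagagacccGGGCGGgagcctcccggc
IGFBP4, chr17:40443200-40443449, plus strand: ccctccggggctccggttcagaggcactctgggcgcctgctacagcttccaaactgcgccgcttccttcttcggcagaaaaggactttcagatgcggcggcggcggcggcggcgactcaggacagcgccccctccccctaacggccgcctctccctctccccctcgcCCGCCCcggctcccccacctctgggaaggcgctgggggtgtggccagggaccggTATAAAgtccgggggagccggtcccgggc

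IRS2 and IRS1 had 5 and 4 GC boxes and no TATA box in these windows, and IGFBP4 had 1 of each, its TATA box beginning 29 bases before the start. Of 35116 promoter windows of the same length, 42.6% held a GC box and 10.7% a TATA box. The insulin response core matched once in IRS2, beginning 41 bases before the start, and in none of the other member windows, against 1.46% of all windows. The FOXO core (TGTTTAC), present in 2.98% of windows, was found in the window of IGFBP6 only, and the E-box (CACGTG), present in 6.34%, in that of IGF2R only, with 3 matches. The motifs were chosen with the sequences in view, and a match is a description of letters, not a site of binding.

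Among the binding proteins, IGFBP4, a secreted protein that mostly restrains IGF action until it is cleaved, was 11.62 and 11.72 on the MDA-MB-231 arrays, 11.03 and 10.98 on those of 231BoM-1833, and 11.71 and 11.82 on those of 231BrM-2a. Both bone-line arrays lay below all the others, while the parental and brain-line arrays overlapped. IGFBP4 fell 1.58-fold in 231BoM-1833 (-0.66 ± 0.11, 95% interval -0.90 to -0.42, adjusted p = 0.00455) and was 1.69-fold higher in 231BrM-2a than in 231BoM-1833 (0.76 ± 0.11, adjusted p = 0.000987). Against MDA-MB-231, the difference in 231BrM-2a was 0.09 ± 0.11 (interval -0.15 to 0.33, adjusted p = 0.578). Without MDA-MB-231 replicate 2, the fall in the bone line just missed the call (-0.61, adjusted p = 0.0505).

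IGFBP7 was 9.73 and 9.86 in MDA-MB-231, 9.49 and 9.41 in 231BoM-1833, and 10.60 and 10.55 in 231BrM-2a. No 2 lines overlapped, and the brain-line arrays stood apart on the high side. IGFBP7 rose 1.72-fold in 231BrM-2a against MDA-MB-231 (0.78 ± 0.11, 95% interval 0.54 to 1.02, adjusted p = 0.00126) and was 2.18-fold higher there than in 231BoM-1833 (1.13 ± 0.11, interval 0.89 to 1.37, adjusted p = 9.96e-05). The difference of the bone line from MDA-MB-231, -0.34 ± 0.11 (interval -0.58 to -0.10), missed the threshold (adjusted p = 0.0576). It was called with a prior that follows the mean level (0.042), after a second quantile normalisation (0.0413) and after removal of the dimmest 33.3% of clusters (0.0408).

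The other 4 binding proteins with a cluster of their own were called in no comparison. IGFBP1, which liver and decidua secrete and insulin represses, was 8.78 and 9.11 in MDA-MB-231, 8.59 and 8.84 in 231BoM-1833, and 8.59 and 8.69 in 231BrM-2a. Its difference in 231BrM-2a, -0.30 ± 0.14 (95% interval -0.62 to 0.01, adjusted p = 0.17), and in 231BoM-1833, -0.23 ± 0.14 (interval -0.55 to 0.09, adjusted p = 0.294), did not pass. The MDA-MB-231 arrays differed from each other by about as much as the lines did.

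IGFBP2, a binding protein with a preference for IGF2, was 6.77 and 6.84 in MDA-MB-231, 6.52 and 6.57 in 231BoM-1833, and 6.52 and 6.50 in 231BrM-2a. Both derivatives lay below both parental arrays, by 0.26 ± 0.10 (adjusted p = 0.109) in the bone line and 0.30 ± 0.10 (adjusted p = 0.0725) in the brain line, without a call. The second of these passed once the dimmest 33.3% of clusters were removed (0.0493). The derivatives differed from each other by -0.03 ± 0.10 (95% interval -0.26 to 0.19).

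IGFBP3, the main carrier of IGFs in blood, was 8.97 and 8.64 in MDA-MB-231, 8.79 and 8.77 in 231BoM-1833, and 8.74 and 8.80 in 231BrM-2a. Its line means were 8.80, 8.78 and 8.77, and the parental arrays enclosed all the others. The interval of each difference reached at most 0.32 in either direction (-0.31 to 0.27 for the bone line, -0.32 to 0.25 for the brain line and -0.30 to 0.27 between them).

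IGFBP5, a matrix-bound binding protein abundant in bone, was 5.31 and 5.22 in MDA-MB-231, 5.52 and 5.35 in 231BoM-1833, and 5.07 and 5.33 in 231BrM-2a. Its differences were 0.17 ± 0.12 in the bone line (adjusted p = 0.382), -0.06 ± 0.12 in the brain line (adjusted p = 0.76) and -0.24 ± 0.12 between the derivatives (adjusted p = 0.223). The 2 brain-line arrays spread over more than the distance between the line means. IGFBP1 and IGFBP3 lie side by side on chromosome 7, and IGFBP2 and IGFBP5 on chromosome 2, in the RefSeq gene order of GRCh38.p14, and neither pair held a called gene.

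The cluster given to both IGFBP6 and C12orf57 was 9.28 and 9.16 in MDA-MB-231, 9.05 and 9.17 in 231BoM-1833, and 9.85 and 9.88 in 231BrM-2a. The brain-line arrays lay above the other 4. It was 1.56-fold higher in 231BrM-2a than in MDA-MB-231 (0.64 ± 0.11, adjusted p = 0.00347) and 1.69-fold higher than in 231BoM-1833 (0.75 ± 0.11, adjusted p = 0.00106), while the bone line differed from MDA-MB-231 by -0.11 ± 0.11 (adjusted p = 0.507). Which of the 2 genes gave the signal is not known. Counted as IGFBP6, it would bring the called members to 2, 3 and 5 of 10 in the bone, brain and between-derivative comparisons, an alternative added after the values were seen.

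IGF2R was 10.07 and 10.29 in MDA-MB-231, 9.79 and 9.98 in 231BoM-1833, and 10.32 and 10.00 in 231BrM-2a. It was called in no comparison. The bone line was lower than MDA-MB-231 on both arrays, with a difference of -0.30 ± 0.14 (95% interval -0.62 to 0.02, adjusted p = 0.184). The brain-line arrays spanned the parental ones, with a difference of -0.02 ± 0.14 (interval -0.35 to 0.30, adjusted p = 0.932), and between the derivatives it was 0.28 ± 0.14 (adjusted p = 0.211).

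Of the docking proteins, IRS2 had the widest range of line means among the members, 1.17. It was 9.10 and 9.01 in MDA-MB-231, 8.26 and 7.95 in 231BoM-1833, and 9.29 and 9.26 in 231BrM-2a, with means of 9.06 ± 0.067, 8.11 ± 0.22 and 9.28 ± 0.017. Both bone-line arrays lay well below the other 4, and the 3 lines did not overlap. IRS2 fell 1.93-fold in 231BoM-1833 against MDA-MB-231 (-0.95 ± 0.12, 95% interval -1.23 to -0.67, adjusted p = 0.00177). It was 2.25-fold higher in 231BrM-2a than in 231BoM-1833 (1.17 ± 0.12, interval 0.88 to 1.45, adjusted p = 0.000204). The difference of 231BrM-2a from MDA-MB-231, 0.22 ± 0.12, was not called (interval -0.06 to 0.50, adjusted p = 0.259). The 2 called differences kept their call in all 16 other settings tried, with adjusted p of 0.00128 to 0.0222 and 0.000142 to 0.00294.

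IRS1 was 8.15 and 8.08 in MDA-MB-231, 8.12 and 7.84 in 231BoM-1833, and 8.49 and 8.65 in 231BrM-2a. The brain-line arrays lay above the other 4, which overlapped. IRS1 rose 1.37-fold in 231BrM-2a against MDA-MB-231 (0.46 ± 0.12, 95% interval 0.18 to 0.74, adjusted p = 0.0326) and was 1.51-fold higher there than in 231BoM-1833 (0.59 ± 0.12, adjusted p = 0.00812). In the bone line its difference was -0.14 ± 0.12 (interval -0.42 to 0.15, adjusted p = 0.495). The rise over MDA-MB-231 lost its call without either parental array (0.101 and 0.168), without 231BrM-2a replicate 1 or 2 (0.0715 and 0.2), or with clusters without a symbol tested too (0.0856), and the difference between the derivatives was not called without 231BrM-2a replicate 2 (0.0712).

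**Figure D2:**
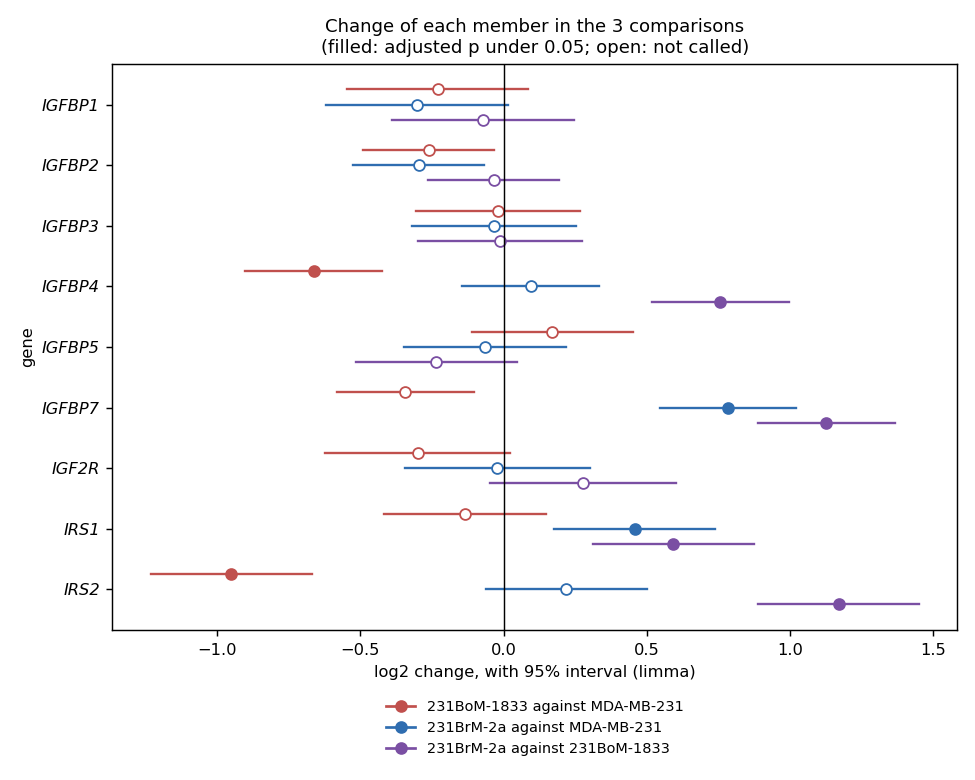
Log2 change (horizontal axis) of each of the 9 members in the 3 comparisons, with 95% intervals from limma and filled points for adjusted p under 0.05. The 4 filled points between the derivatives lie from 0.59 for IRS1 to 1.17 for IRS2, and the 2 filled points of the bone comparison, IGFBP4 and IRS2, lie to the left of 0.

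**Figure D3:**
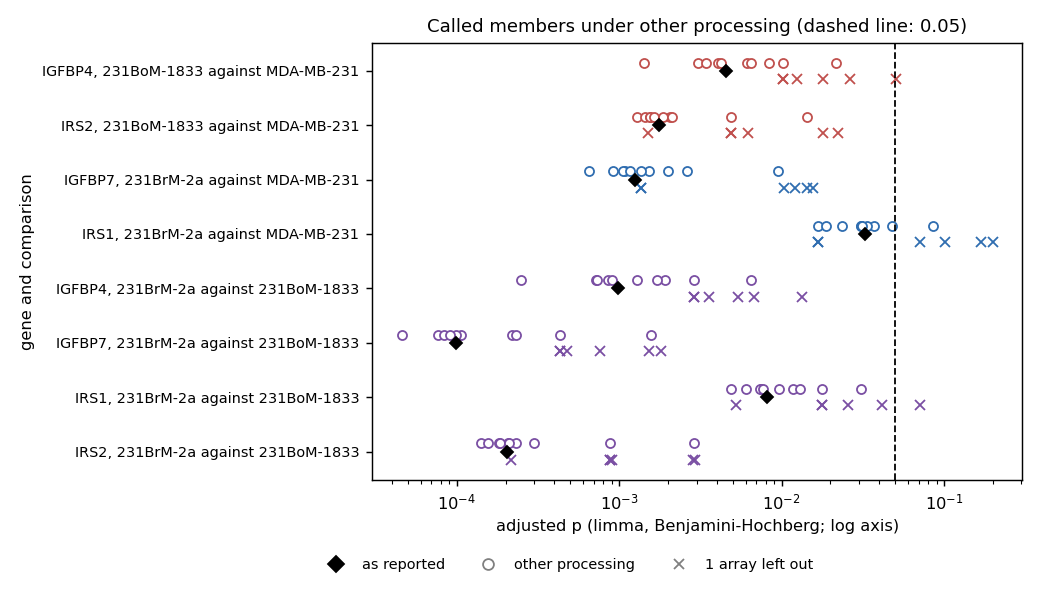
Adjusted p (limma, log axis) of the 8 called member differences as reported and under other processing, with crosses for fits that leave out 1 array and a dashed line at 0.05. IRS2 and IGFBP7 stay left of the line in all settings shown, and IRS1 in 231BrM-2a against MDA-MB-231 crosses it in 5.

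The members were set beside 60 other genes of the IGF axis, grouped by role. In 231BoM-1833, 9 of these rose and 4 fell. In 231BrM-2a, 7 rose and 6 fell, and between the derivatives 12 were higher and 9 lower in the brain line. These were 21.7%, 21.7% and 35.0% of the 60 genes, beside 15.8%, 19.0% and 23.5% of all clusters, so the first 2 lie near the background. The median change of the 60 genes was -0.03, 0.01 and 0.06. Without MDA-MB-231 replicate 1 or 2 the count of calls was 6 in place of 13 in each comparison with that line, and in the brain comparison it was 7 and 6 without 231BrM-2a replicate 1 and 2.

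Of the 5 measured ligands and receptors, 0 were called by limma in 231BoM-1833 (2 were lower at an unadjusted p under 0.05), and 2, IGF1R and INSR, rose in 231BrM-2a. IGF1R was 8.89 and 8.60 in MDA-MB-231, 8.71 and 8.76 in 231BoM-1833, and 9.45 and 9.40 in 231BrM-2a. Both brain-line arrays stood above the other 4. IGF1R rose 1.60-fold over MDA-MB-231 (0.68 ± 0.12, adjusted p = 0.00468) and was 1.62-fold higher than in 231BoM-1833 (0.69 ± 0.12, adjusted p = 0.00309), and its second cluster gave 0.92 and 0.86 (adjusted p = 0.000638 and 0.00053).

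INSR was 8.52 and 8.34 in MDA-MB-231, 7.85 and 8.22 in 231BoM-1833, and 8.91 and 9.04 in 231BrM-2a, an order of the lines that it shared with IRS1 and IRS2. It rose 1.46-fold in 231BrM-2a over MDA-MB-231 (0.55 ± 0.14, adjusted p = 0.0261) and was 1.92-fold higher than in 231BoM-1833 (0.94 ± 0.14, adjusted p = 0.00149), while the bone line differed from MDA-MB-231 by -0.39 ± 0.14 (adjusted p = 0.0929). The rise over MDA-MB-231 was lost without MDA-MB-231 replicate 1 or 2 (0.0601 and 0.174), without 231BrM-2a replicate 1 or 2 (0.0757 and 0.155) and with clusters without a symbol tested too (0.0788), and the bone difference was called without 231BoM-1833 replicate 2 (0.0321). IGF1 had line means of 4.86, 4.81 and 4.88 and was called in no comparison (adjusted p = 0.701 to 0.898). IGF2 sat only on a cluster shared with INS and INS-IGF2, which was lower in 231BoM-1833 than in MDA-MB-231 by 0.49 ± 0.10 (adjusted p = 0.0151, lost without MDA-MB-231 replicate 1 or 2, 0.0557 and 0.111) and was not called in 231BrM-2a (-0.03 ± 0.10, adjusted p = 0.853). Between the derivatives this cluster was higher in the brain line by 0.45 ± 0.10 (adjusted p = 0.0121), lost without 231BrM-2a replicate 1 (0.0886).

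Among 8 genes for IGFBP proteases and their inhibitors, 3 rose and 1 fell in 231BoM-1833. PAPPA, the metalloprotease known for cleaving IGFBP4, was 6.34 and 6.29 in MDA-MB-231, 8.41 and 8.23 in 231BoM-1833, and 7.65 and 7.94 in 231BrM-2a. All 4 derivative arrays lay above the parental ones. PAPPA rose 4.01-fold in 231BoM-1833 (SE 0.13 on the log2 scale, adjusted p = 2.88e-05) and 2.78-fold in 231BrM-2a (1.47 ± 0.13, adjusted p = 0.000104). It was lower in the brain line than in the bone line by 0.53 ± 0.13 (adjusted p = 0.0153), which was not called without the first bone-line array (0.066) or the first brain-line array (0.125).

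STC1, a secreted glycoprotein that inhibits PAPPA, was 9.42 and 9.16 in MDA-MB-231, 10.96 and 10.84 in 231BoM-1833, and 8.29 and 8.45 in 231BrM-2a. The lines did not overlap, with the bone line high and the brain line low. STC1 rose 3.04-fold in 231BoM-1833 (1.61 ± 0.13, adjusted p = 0.000117) and fell 1.90-fold in 231BrM-2a (-0.92 ± 0.13, adjusted p = 0.00127), a 5.78-fold difference between the derivatives (adjusted p = 2.24e-06). HTRA1, a secreted serine protease with IGFBP5 among its substrates, was 9.83 and 9.90 in MDA-MB-231, 8.998 and 8.74 in 231BoM-1833, and 9.84 and 9.96 in 231BrM-2a. It fell by 0.998 ± 0.12 in the bone line (adjusted p = 0.00115) and was 2.04-fold higher in the brain line than in the bone line (adjusted p = 0.00035), with 0.03 ± 0.12 between the brain line and MDA-MB-231 (adjusted p = 0.896). ADAMTS1, a metalloprotease named here after its values were seen, rose by 0.71 ± 0.12 in the bone line (adjusted p = 0.00592), which missed the call without MDA-MB-231 replicate 1 (0.0522), and was lower in the brain line than in the bone line by 0.65 ± 0.12 (adjusted p = 0.0041).

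**Figure D4:**
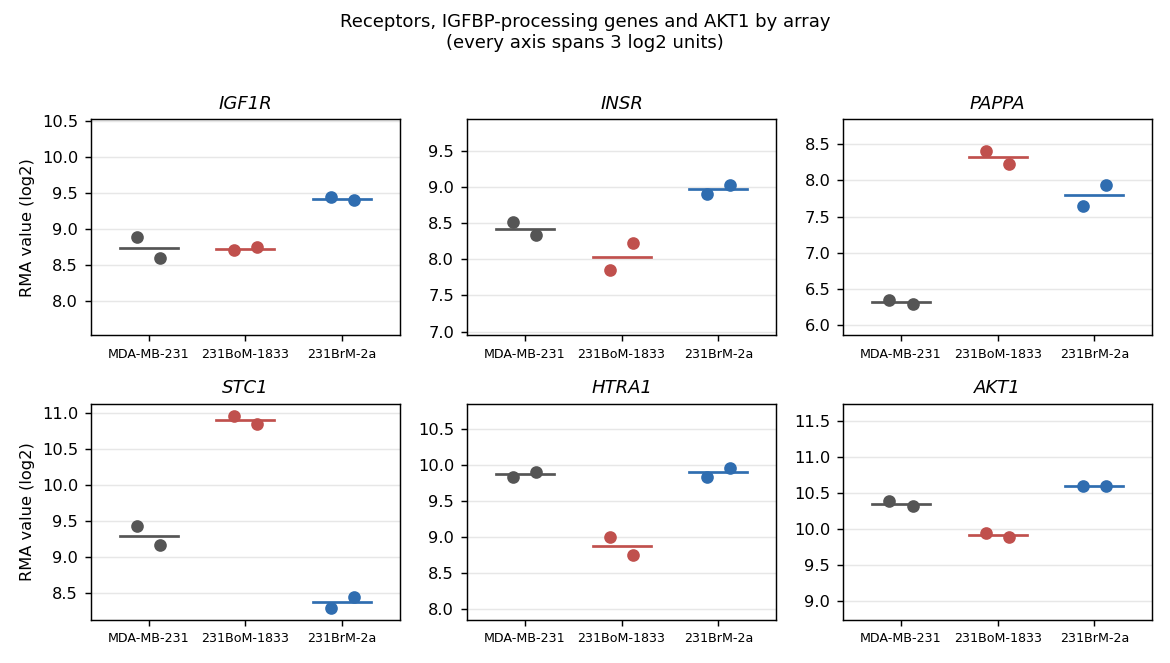
RMA values (log2, vertical axis, every panel spanning the same range) of both receptors, 3 genes for IGFBP processing and AKT1 on each array, with points for arrays and lines for the mean of 2 arrays. PAPPA is high in both derivatives, STC1 is high in 231BoM-1833 and low in 231BrM-2a, and IGF1R is high in 231BrM-2a.

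Of 10 relatives with an IGFBP-type domain, 3 rose and 0 fell in 231BoM-1833, and 1 rose and 2 fell in 231BrM-2a. That is 30.0% of the 10 in each comparison, beside 15.8% and 19.0% of all clusters. ESM1, a secreted proteoglycan of endothelium, averaged 8.28 ± 0.27 in MDA-MB-231, 9.30 ± 0.11 in the bone line and 5.06 ± 0.14 in the brain line. It rose 2.04-fold in the bone line (adjusted p = 0.00257) and fell 9.33-fold in the brain line (adjusted p = 3.92e-06), a 19.0-fold difference between the derivatives (adjusted p = 5.01e-07). CCN3, a matricellular protein, rose by 0.73 ± 0.11 in the bone line (adjusted p = 0.00354) and fell by 0.81 ± 0.11 in the brain line (adjusted p = 0.00136). CRIM1, a membrane protein that binds bone morphogenetic proteins, rose by 0.78 ± 0.10 in the brain line (adjusted p = 0.001) and differed by -0.05 ± 0.10 in the bone line. Named after their values were seen, CCN2 rose by 0.68 ± 0.13 in the bone line (adjusted p = 0.0105), lost without MDA-MB-231 replicate 2 (0.0908), and KAZALD1 was higher in the brain line than in the bone line by 0.40 ± 0.10 (adjusted p = 0.0229), lost without either brain-line array (0.122 and 0.0931) or the second bone-line array (0.0774).

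Among 13 other adaptors and receptor regulators, 1 rose and 0 fell in 231BoM-1833, and 1 rose and 2 fell in 231BrM-2a. Set beside 15.8% and 19.0% of all clusters, the shares of 7.69% and 23.1% lie below and near the background. GRB14, an adaptor that inhibits the insulin receptor, rose 1.80-fold in the bone line (0.85 ± 0.17, adjusted p = 0.0134) and was 2.35-fold lower in the brain line than in the bone line (-1.23 ± 0.17, adjusted p = 0.00105). It was dim, with means of 5.10 in MDA-MB-231 and 4.71 in the brain line, within the range of ESR1 and PGR. The bone-line arrays stood at 6.20 and 5.69. GRB10, a related inhibitory adaptor, fell by 0.49 ± 0.12 in the brain line (adjusted p = 0.0241) and was lower there than in the bone line by 0.47 ± 0.12 (adjusted p = 0.0241). PTPN1, a phosphatase that acts on the insulin receptor, was higher in the brain line than in the bone line by 0.57 ± 0.16 (adjusted p = 0.0308). Chosen after their values were seen were GAB1, SHC1 and SH2B1. The docking protein GAB1 fell by 0.43 ± 0.10 in the brain line (adjusted p = 0.0172) and was lower there than in the bone line by 0.41 ± 0.10 (adjusted p = 0.0155). Its second cluster gave -0.37 and -0.18, neither of them called (adjusted p = 0.0631 and 0.34). The adaptor SHC1 rose by 0.39 ± 0.11 in the brain line (adjusted p = 0.0401). SH2B1, an adaptor that enhances receptor signalling, was higher in the brain line than in the bone line by 0.41 ± 0.12 (adjusted p = 0.04).

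The GRB14 difference between the derivatives kept its call in the 15 other settings that measured it (adjusted p = 0.00024 to 0.012), and each of the other adaptor calls was lost without 1 array or another. The bone call of GRB14 was lost without MDA-MB-231 replicate 1 or 2 (0.0531 and 0.106). In the brain comparison, GRB10 was lost without MDA-MB-231 replicate 1 or 2 (0.0846 and 0.137) or 231BrM-2a replicate 2 (0.176), while GAB1 (0.0764 to 0.0978) and SHC1 (0.128 to 0.18) were each lost without any of the 4 arrays compared. Between the derivatives, GRB10 was lost without 231BoM-1833 replicate 2 (0.114) or 231BrM-2a replicate 2 (0.174), and PTPN1 without those (0.149 and 0.196) or either MDA-MB-231 array (0.0546 each). SH2B1 was lost there without any of the 4 arrays compared (0.0852 to 0.17), and GAB1 without either 231BrM-2a array (0.0812 and 0.0852) and when its clusters were averaged (0.0674).

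In the list from PI3K to FOXO and mTOR, 14 genes were measured, of which 2 rose and 1 fell in 231BoM-1833, and 1 rose and 1 fell in 231BrM-2a. Both shares, 21.4% and 14.3%, lie near the 15.8% and 19.0% of all clusters. AKT1, the kinase that PI3K activates, was 10.38 and 10.32 in MDA-MB-231, 9.95 and 9.88 in 231BoM-1833, and 10.59 on each 231BrM-2a array. It fell 1.35-fold in the bone line (-0.43 ± 0.10, adjusted p = 0.0218) and was 1.60-fold higher in the brain line than in the bone line (0.68 ± 0.10, adjusted p = 0.00141). RHEB, the small GTPase that activates mTOR, rose by 0.44 ± 0.10 in the brain line (adjusted p = 0.016) and was higher there than in the bone line by 0.72 ± 0.10 (adjusted p = 0.00104), with 0.38 and 0.56 on its second cluster (adjusted p = 0.0715 and 0.0127). PIK3R1, the regulatory subunit that binds phosphorylated IRS proteins, went the other way: it rose by 0.57 ± 0.12 in the bone line (adjusted p = 0.0127), fell by 0.41 ± 0.12 in the brain line (adjusted p = 0.0374) and was 1.97-fold lower in the brain line than in the bone line (adjusted p = 0.000372).

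Chosen after their values were seen, PIK3CB, a catalytic subunit of PI3K, rose by 0.38 ± 0.10 in the bone line (adjusted p = 0.0384), and TSC1, a brake on mTOR, was higher in the brain line than in the bone line by 0.49 ± 0.11 (adjusted p = 0.011). Against MDA-MB-231, every call of PIK3R1, AKT1, RHEB and PIK3CB was lost without either array of that line (adjusted p = 0.0567 to 0.172). In the bone comparison, AKT1 was also lost without 231BoM-1833 replicate 2 (0.0658), and PIK3CB without any other array (0.0616 to 0.0959). In the brain comparison, PIK3R1 and RHEB were also lost without 231BrM-2a replicate 1 (0.0675 and 0.0592) or 2 (0.232 and 0.118). Between the derivatives, TSC1 was lost without 231BrM-2a replicate 2 (0.0938), and PIK3R1, AKT1 and RHEB kept their calls.

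Of 7 genes for mannose 6-phosphate sorting, the other task of IGF2R, 0 rose and 2 fell in 231BoM-1833, and 1 rose and 0 fell in 231BrM-2a. As shares, 28.6% and 14.3% were called, small counts beside 15.8% and 19.0% of all clusters. NAGPA, which uncovers the mannose 6-phosphate tag, fell by 0.49 ± 0.11 in the bone line (adjusted p = 0.0183) and was higher in the brain line than in the bone line by 0.54 ± 0.11 (adjusted p = 0.00696). GGA1, a sorting adaptor, fell by 0.37 ± 0.11 in the bone line (adjusted p = 0.0444), and M6PR, the smaller receptor of this tag, rose by 0.40 ± 0.10 in the brain line (adjusted p = 0.0248). GGA2, chosen after its values were seen, was higher in the brain line than in the bone line by 0.37 ± 0.11 (adjusted p = 0.0376). Leaving out any 1 of the 6 arrays ended the calls of GGA1 (0.0562 to 0.173) and GGA2 (0.0581 to 0.241), and leaving out any of the 4 arrays compared ended that of M6PR (0.097 to 0.139). NAGPA was lost in the bone line without MDA-MB-231 replicate 1 or 2 (0.0591 and 0.129) or 231BoM-1833 replicate 1 (0.0627), and between the derivatives without 231BrM-2a replicate 1 (0.0537). None of the 3 IGF2 mRNA-binding proteins was called in a comparison with limma (adjusted p = 0.0598 to 0.957), while 2, 2 and 1 were lower at an unadjusted p under 0.05.

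**Figure D5:**
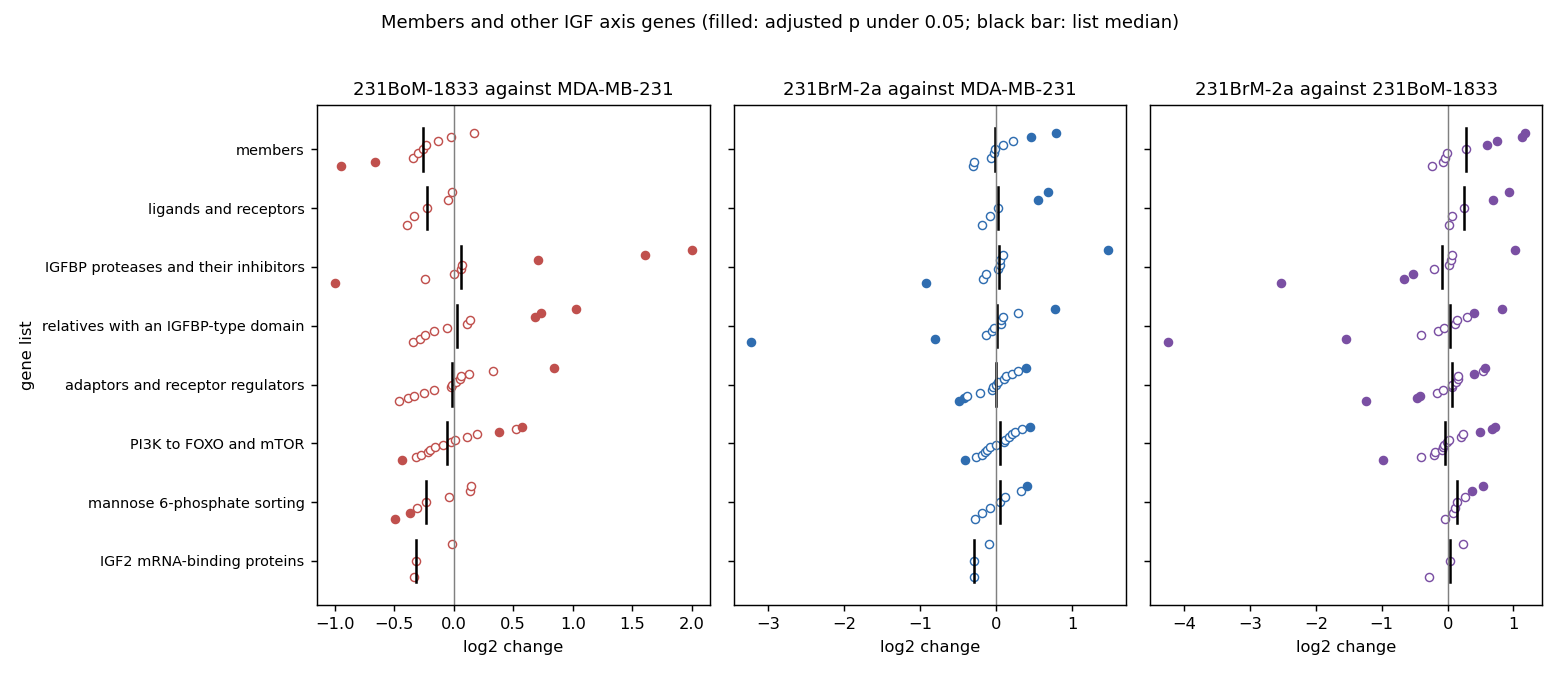
Log2 change (horizontal axis, its range differing between panels) of the 9 members and of the other IGF axis genes by list, in the 3 comparisons, with filled points for adjusted p under 0.05 and a black bar for the list's median. Between the derivatives the 4 filled members lie right of 0, while the proteases and relatives spread from -4.25 for ESM1 to 1.03 for HTRA1.

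The genes whose values were most like those of the 2 members with the widest range of line means were found from the root mean square difference over 6 arrays, after each gene was centred on its own mean. Among 18417 other symbols, those nearest to IRS2 were EFNA5, an ephrin (0.0757), ADCY3, an adenylyl cyclase (0.0769), CAV1, the caveolar coat protein (0.09), CHST15, a sulfotransferase (0.0958), and HDHD5 (0.101). ADCY3, for example, fell by 1.09 ± 0.12 in 231BoM-1833 and was 0.25 ± 0.12 above MDA-MB-231 in 231BrM-2a. Nearest to IGFBP7 were FSTL3, an inhibitor of activins (0.0446), BCAM, a laminin receptor (0.0546), OGFRL1 (0.0557), ZNF845 (0.0588) and DNAJC15, a mitochondrial cochaperone (0.0636). FSTL3 rose by 0.73 ± 0.10 in 231BrM-2a (adjusted p = 0.00162) and fell by 0.38 ± 0.10 in 231BoM-1833 (adjusted p = 0.0388), the latter lost without any 1 of the 6 arrays (0.0665 to 0.201). These likenesses rest on 6 arrays of 3 lines and are a description only.

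Markers of other cell types were read beside the members, since fibroblasts, osteoblasts and endothelium are known to make IGFBP4, IGFBP5 and IGFBP7. Of 5 measured fibroblast and osteoblast markers, 3 rose and 0 fell in 231BrM-2a, beside 10.5% of all clusters higher and 8.59% lower. In 231BoM-1833, 0 rose and 1 fell, beside 8.43% higher and 7.38% lower. The called shares were 60.0% and 20.0%, beside 19.0% and 15.8% of all clusters. These rest on 5 genes, and the second lies near the background. PDGFRB rose by 1.70 ± 0.13 (adjusted p = 6.54e-05), DCN by 0.98 ± 0.16 (adjusted p = 0.00296) and LUM by 0.36 ± 0.11 (adjusted p = 0.0441) in the brain line, and DCN fell by 0.79 ± 0.16 in the bone line (adjusted p = 0.0122). The summed linear level of the 5 was 582 to 625 per array in MDA-MB-231, 516 to 523 in the bone line and 788 to 898 in the brain line. PDGFRA stood between 4.80 and 5.21 on all 6 arrays, and LUM at line means of 3.50 to 4.03. RUNX2, the brightest of the 5 in each line, averaged 8.73 in MDA-MB-231, 8.48 in the bone line and 8.76 in the brain line. Neither RUNX2 (adjusted p = 0.101 to 0.893 by limma) nor PDGFRA was called in any comparison. Between the derivatives, DCN, LUM and PDGFRB were higher in the brain line by 1.77, 0.53 and 1.55 (adjusted p = 7.58e-05, 0.00673 and 5.5e-05), a call that LUM lost without 231BrM-2a replicate 1 (0.0521). The LUM call against MDA-MB-231 was lost without any of the 4 arrays compared (0.09 to 0.205), and that of DCN in the bone line without the first parental array (0.0838) or the second bone-line array (0.0533). The part of these markers in the member results was not tested.

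Of 5 endothelial markers, 1 rose and 0 fell in 231BoM-1833, where 15.8% of all clusters were called. In 231BrM-2a, 0 rose and 2 fell, where 19.0% of all clusters were called. These counts rest on 5 genes, and the first lies near the background. The summed level of the 5 was 408 to 424 in MDA-MB-231, 460 to 528 in the bone line and 254 to 277 in the brain line. KDR fell by 1.13 ± 0.13 in the brain line (adjusted p = 0.000425) and rose by 0.44 ± 0.13 in the bone line (adjusted p = 0.0444), the latter lost without 5 of the 6 arrays (0.0617 to 0.213, all but 231BoM-1833 replicate 1). PECAM1 was lower in the brain line by 0.38 ± 0.11 (adjusted p = 0.0382), lost without any of the 4 arrays compared (0.081 to 0.215) and when its clusters were averaged (0.256). KDR, with line means of 7.99, 8.43 and 6.86, was the brightest of the 5 in each line and so weighed most in their sum. CDH5 (line means of 5.52 to 5.56), VWF (5.10 to 5.17) and TEK (4.41 to 4.67) were called in no comparison. IGFBP7 was highest in the line where KDR, and with it the summed level, was lowest, and a link between them was not tested. Of 6 measured leukocyte markers and 3 sort markers, 0 were called by limma in the comparisons with MDA-MB-231. The share over all clusters was 15.8% and 19.0%. At an unadjusted p under 0.05, 1 leukocyte marker passed in the bone line and 1 marker of each list in the brain line. The sort markers differed between the 2 bone-line arrays: EPCAM was 8.32 and 7.28, CD24 6.49 and 5.76, and CD44 12.17 and 11.82. With this spread, no call does not show that the sorted populations were alike. In 231BrM-2a, CD44 differed from MDA-MB-231 by -0.41 ± 0.13, just short of a call (adjusted p = 0.055), and the arrays did not overlap. PTPRC, which defines leukocytes, stood at line means of 3.68 to 3.73. CD68, a lysosomal protein of macrophages on the leukocyte list, stood at line means of 10.91 to 11.54, and the remaining leukocyte markers at 4.52 to 6.12. Between the derivatives, where 4 members were called, CD68 was lower in the brain line than in the bone line by 0.63 ± 0.11 (adjusted p = 0.00389). The sort marker CD44 was lower there by 0.55 ± 0.13 (adjusted p = 0.014), lost without 231BoM-1833 replicate 1 (0.0565) or either 231BrM-2a array (0.074 and 0.0704). Of 4 hepatocyte markers, SERPINA1 alone was called, higher in 231BrM-2a by 0.58 ± 0.12 (adjusted p = 0.0109), which was lost without MDA-MB-231 replicate 2 (0.0988) or 231BrM-2a replicate 2 (0.0928). The 1 call among 4 hepatocyte markers is a small count beside the 19.0% of all clusters called in 231BrM-2a against MDA-MB-231. ALB stood at line means of 4.07 to 4.18, and IGFBP1, which hepatocytes make, was called in no comparison. The part of these markers in the member results was not tested either.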

How the data were processed

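Expression was measured with 2 Affymetrix Human Gene 1.0 ST arrays for each line. The deposited values are log2 values per transcript cluster. Per the submitters' processing notes, they come from RMA as run by Affymetrix Expression Console, whose version is not stated. A genome build was not given in the sources used here. RMA puts the arrays on 1 scale, so a change in total RNA would not show. The table held 33297 clusters, 21214 with a symbol (19461 with 1, 1753 with several) and 12083 unnamed here. Genes were read from clusters with 1 symbol, the brightest where there were several.

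Differences were fitted by lmFit and eBayes (limma 3.58.1, R 4.3.3; a mean per line, two-sided, no covariate), with 3 residual and 6.06 prior degrees of freedom. An exact permutation of 2 against 2 arrays cannot reach 0.05 and was not run. The code was tested on simulated data. The members, gene lists and alternatives were chosen with earlier results of these data known. Named genes were all members, up to 3 genes per list with the largest called change, IGF1, IGF2, IGF1R and INSR, and the 5 nearest to each of 2 members.

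Same-numbered arrays deviated with correlations of 0.036, -0.162 and -0.165, so the numbers were not taken as pairs.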

Additional observations from a re-analysis of the deposited data

Results flagged for a closer look

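The change from MDA-MB-231 differed between the 2 derivatives, by the limma test of that difference, for the results below, each given as the log2 change in 231BrM-2a minus that in 231BoM-1833. Both changes share the MDA-MB-231 arrays, and the test is that of 231BrM-2a against 231BoM-1833. Lines of 2 arrays were not examined for an array far from its group.

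Of the members, IGFBP4 differed by 0.76, IGFBP7 by 1.13, IRS1 by 0.59 and IRS2 by 1.17, all higher in the brain line (adjusted p = 0.000987, 9.96e-05, 0.00812 and 0.000204). Of the other IGF axis genes, those higher in the brain line were INSR by 0.94, IGF1R by 0.69, HTRA1 by 1.03, CRIM1 by 0.83, PTPN1 by 0.57, RHEB by 0.72, AKT1 by 0.68, NAGPA by 0.54, KAZALD1 by 0.40, SH2B1 by 0.41, TSC1 by 0.49 and GGA2 by 0.37. Those lower in the brain line were STC1 by -2.53, PAPPA by -0.53, ESM1 by -4.25, CCN3 by -1.54, GRB14 by -1.23, GRB10 by -0.47, PIK3R1 by -0.98, ADAMTS1 by -0.65 and GAB1 by -0.41. The cluster of IGFBP6 and C12orf57 differed by 0.75 and that of INS-IGF2, INS and IGF2 by 0.45. Calls that were lost without 1 array are given with the results above.

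Of the cell type and line markers, DCN by 1.77, LUM by 0.53, PDGFRB by 1.55 and ERBB2 by 0.80 were higher in the brain line, and KDR by -1.57, CD44 by -0.55, CD68 by -0.63 and VIM by -0.59 were lower. Of the genes nearest to IRS2 in pattern, EFNA5 differed by 1.12, ADCY3 by 1.34, CAV1 by 1.09, CHST15 by 0.99 and HDHD5 by 0.98. Of those nearest to IGFBP7, FSTL3 differed by 1.10, BCAM by 1.14, OGFRL1 by 1.04, ZNF845 by 1.04 and DNAJC15 by 1.08, and these 10 genes were chosen for a pattern that holds such a difference.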

How the results depend on the processing

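Over 10 other settings and the fits without 1 array each, the 4 member differences between the derivatives kept their direction, and those of IGFBP4, IGFBP7 and IRS2 kept their call. The called members numbered 1 to 2 in the bone comparison, 1 to 2 in the brain comparison and 3 to 4 between the derivatives when an array was left out. The called IGF axis genes then numbered 6 to 12, 6 to 13 and 14 to 21. Leaving out an array of a compared line leaves 1 sample there, assumed to vary like the others. With clusters without a symbol tested too, 8 axis genes were called in the bone comparison and 8 in the brain comparison, in place of 13 in each, and 1 member in the brain comparison, in place of 2. With the replicate number as a block, 2, 2 and 4 members and 12, 12 and 20 axis genes were called, and among the member calls none changed. With the 231BrM-2a numbers crossed, added after the data were seen, these were 2, 2 and 4 members and 14, 15 and 21 axis genes.

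Of the single IGF axis calls, those of GGA1, GGA2, PIK3CB, SHC1 and SH2B1 were lost in 2 or more settings that kept all arrays (adjusted p = 0.0566 to 0.092). The PTPN1 call was lost with clusters without a symbol tested too (0.0861) and in the fit of only the 2 lines compared (0.0546). The former setting also ended the bone calls of GRB14, AKT1 and NAGPA (0.0505 to 0.0525). It ended the brain calls of INSR, GRB10, PIK3R1 and M6PR (0.0606 to 0.0896), and those of GRB10 and KAZALD1 between the derivatives (0.0642 and 0.0535). Values near 0 and not called changed sign, and the cause was not tested. In the bone comparison, centring each array on its median gave 0.019 for IGFBP3, 0.026 for IGF1R and 0.016 for GRB10, and averaging a gene's clusters gave 0.021 for IGF1R. When an array was left out, the bone values ranged from -0.19 to 0.15 for IGFBP3, -0.27 to 0.0022 for IRS1, -0.16 to 0.13 for IGF1R, -0.13 to 0.089 for GRB10 and -0.10 to 0.0060 for IGF1. The brain values ranged from -0.20 to 0.13 for IGFBP3, -0.20 to 0.068 for IGFBP5, -0.19 to 0.14 for IGF2R, -0.033 to 0.089 for HTRA1, -0.024 to 0.23 for PTPN1, -0.016 to 0.11 for NAGPA and -0.060 to 0.11 for IGF1. Those between the derivatives ranged from -0.19 to 0.049 for IGFBP1, -0.045 to 0.020 for IGFBP3 and -0.012 to 0.16 for IGF1.

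No signal over background was given with the values, so folds of dim clusters such as IGFBP5 may be understated. Arrays centred on their medians, the robust prior and fits of only the 2 lines compared changed no member call.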
